A study of Homo sapiens with 6 samples.

Results

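The genes of the Mediator complex were followed in H69AR, a doxorubicin-resistant derivative of the small cell lung cancer line NCI-H69. They were taken as every protein-coding gene whose symbol is MED followed by a number (with its lettered paralogues), together with CDK8, CDK19 and CCNC, which gave 33 of the 60605 genes in the count table. RNA was sequenced from 3 libraries of H69AR cells given 70 nM Supinoxin, a small molecule known as a ligand of the helicase DDX5, and from 3 libraries of cells left without it, and the series asks through which pathway the drug acts. Cells grew at 37 C and 5% CO2 in RPMI-1640 medium containing 20% serum, treated cells were confluent, and the labels name both groups wild type. How long treatment lasted, and whether untreated cells received a vehicle, is not stated in the labels. Nothing says whether replicates came from separate cultures, and p-values therefore reflect only how far these libraries spread, which may be technical.

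Mediator is the large coactivator that carries signals from transcription factors bound at enhancers to RNA polymerase II at promoters. Its head and middle modules contact the polymerase, its tail module receives most activators, MED14 runs through all 3 as the backbone, and a separable kinase module (CDK8 or CDK19 with cyclin C, MED12 or MED12L, and MED13 or MED13L) binds the core reversibly and then keeps the polymerase away. By this scheme the 33 genes fall into 9 head, 9 middle, 1 backbone, 7 tail and 7 kinase module genes. The places of MED19, MED28 and MED30 differ between published schemes, and here MED19 was put in the middle and the other two in the head.

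Total counts per library ran from 30136963 to 39402804, so that 1 CPM (counts scaled by TMM to a common library size) stood for 30.67 to 38.25 counts. Of the 33 genes, 29 had enough counts to be tested. MED20, MED26 and CCNC were listed at 0 in every library and MED7 at 1 count in Supinoxin replicate 2 and 1 in untreated replicate 2. Since dividing cells use these subunits, a listed 0 was not read as silence. By sampling alone, a gene at 0 in a library could lie at up to 3 counts there. Of the genes beside Mediator listed further on, GTF2H4, TAF9, EAF1 and SUPT4H1 were also at 0 in every library. TAF10 was at 2 counts in all, and none of these was tested. The share of exonic bases that another gene holds on the same strand was 41.9% for MED26 and 25.3% for MED20, against 1.8% for MED7 and 0.0% for CCNC. On the opposite strand it was 13.1% for CCNC (with TSTD3, at 929 counts in all), 11.9% for MED26, 1.95% for MED7 and 0.0% for MED20. The part of these overlaps in the 0 counts was not tested. Cyclin C, the partner of CDK8 and CDK19, and the middle subunit MED7 are therefore not analysed here. Untreated replicate 1 stood apart from the other untreated libraries on the first principal component, at 79.59 against 45.38 and 44.42, with the Supinoxin libraries between -58.84 and -54.52. Log2 fold changes of Mediator genes that move by over 1.5 times without it are given both ways. Of markers of the line, ABCC1, the drug efflux pump for which H69AR is known, stood at 3526 ± 483 CPM in untreated and 10476 ± 318 in Supinoxin libraries (SD, n = 3 each), the epithelial keratin gene KRT8 at 165 ± 53.2 and 112 ± 5.01, the epithelial adhesion gene EPCAM at 10.3 ± 1.23 and 1.22 ± 0.196, and the neuroendocrine factor gene NEUROD1 at 0 counts in all. INSM1, another neuroendocrine factor gene, fell from 19.6 ± 2.83 to 11.9 ± 0.413 CPM and the adhesion gene NCAM1 from 4.49 ± 0.983 to 1.55 ± 0.209, while SYP, for synaptophysin, was at 6.73 ± 1.68 and 5.62 ± 0.211. CDH2, for N-cadherin, rose from 179 ± 31.3 to 699 ± 20.5 CPM and YAP1, a factor of non-neuroendocrine lines, from 35.6 ± 3.98 to 78.5 ± 2.74. The keratin gene KRT18 was at 36.7 ± 13.1 and 32.3 ± 2.82 CPM and VIM, for vimentin, at 976 ± 184 and 1032 ± 7.06. In edgeR KRT8, KRT18 and VIM did not pass (adjusted p = 0.0507, 0.512 and 0.69). Their log2 fold changes were -0.55, -0.18 and 0.08, or -0.25, 0.15 and 0.23 without untreated replicate 1, where KRT8 passed (adjusted p = 0.0321). Some markers of the line thus moved with treatment and others did not pass. Of markers of blood, endothelial, fibroblast and liver cells, PTPRC, CD3E, CD14, PECAM1, VWF and ALB lay under 2 CPM in every library, while the collagen genes COL1A1 and COL3A1 were at 325 CPM or more in all 6. The part of these differences in the results on Mediator was not tested.

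With Supinoxin, Mediator genes moved in both directions. MED13, MED1, MED13L, MED12, MED23 and CDK19 rose by 1.51-fold to 2.82-fold, and MED11, MED25, MED30, MED31, MED19, MED8 and MED28 fell by 1.29-fold to 1.96-fold. In the quasi-likelihood test of edgeR, with Benjamini-Hochberg adjustment across the 15947 genes tested, 6 of 29 Mediator genes were higher and 7 lower at an adjusted p under 0.05, against 23.4% of all genes higher and 25.2% lower. The counts of members are thus near the background in each direction. Which members moved is described below by module and by transcript length, and the part of length was not tested. Groups did not overlap for 8 higher and 12 lower members, against 31.3% and 31.1% of all genes. Log2 fold changes had a median of -0.22 among the 29 and 0.00 among all genes tested, and among the 29 it was -0.13 without untreated replicate 1 and -0.11 with the length and GC offset described further on. In such bulk RNA, fewer cells of a kind and less RNA per cell cannot be told apart. Without untreated replicate 1, 9 members were higher and 8 lower, against 26.5% and 27.4% of all genes, again near the background.

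**Figure D1:**
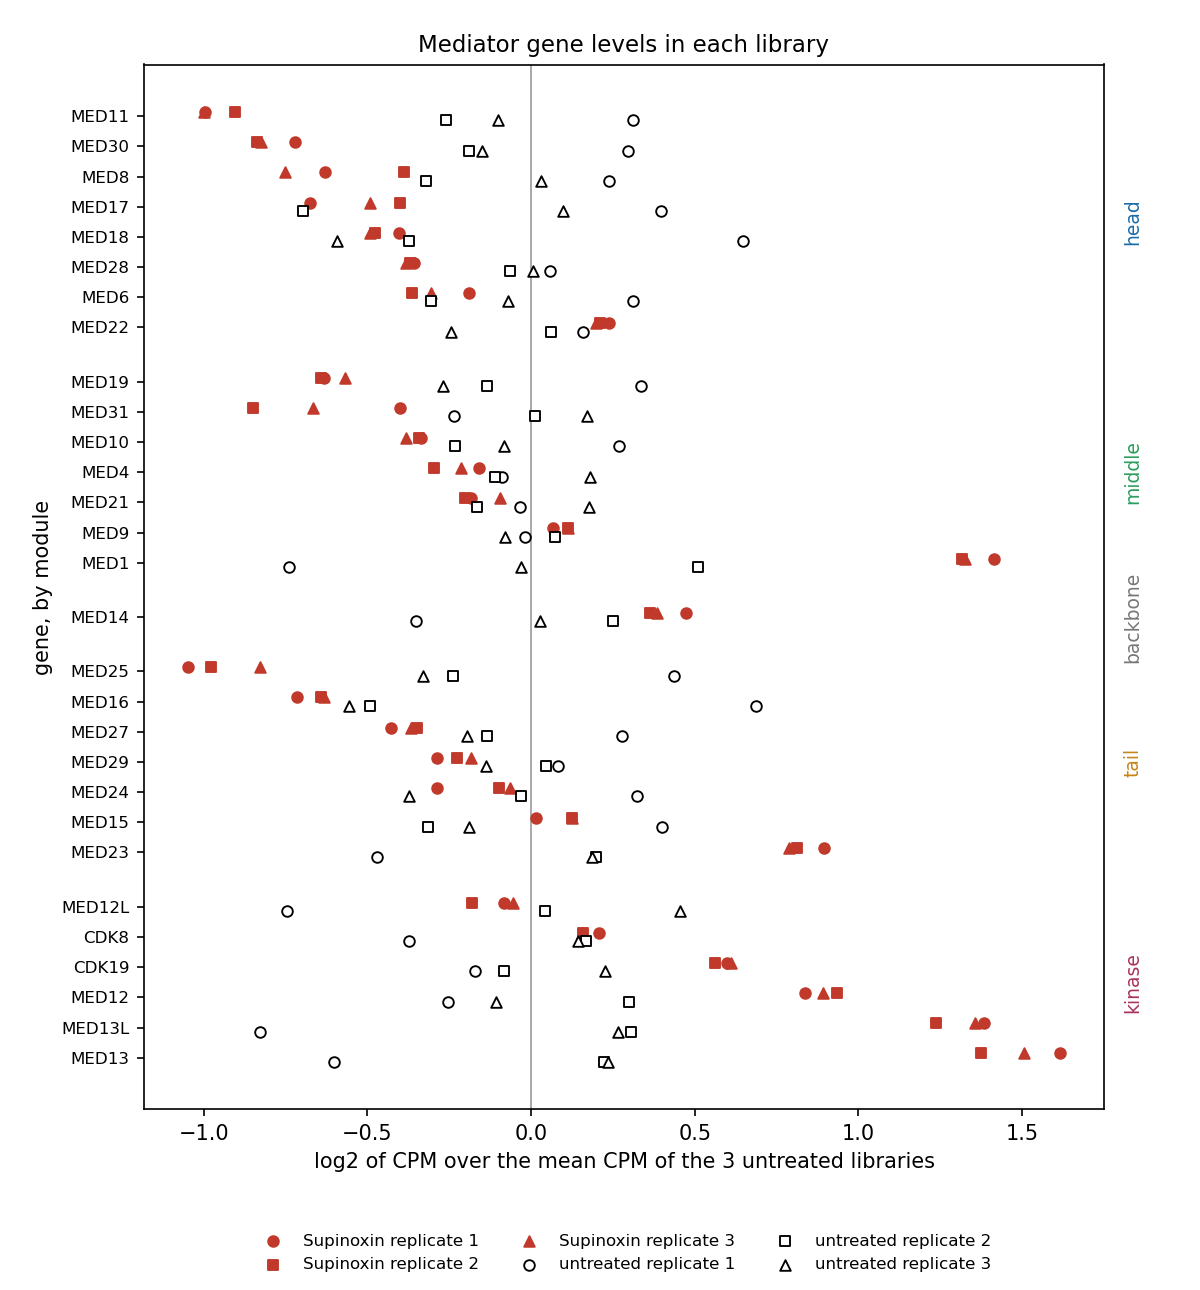
Level of each of the 29 tested Mediator genes in every library, as the log2 of its CPM over the mean of the 3 untreated libraries (x axis), by gene and module (y axis). Filled symbols are Supinoxin and open symbols untreated libraries, with 1 shape per replicate number. The Supinoxin libraries lie close together for most genes, while untreated replicate 1 (open circles) lies below the other untreated libraries for all 6 kinase module genes and above them for all 8 head genes.

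The kinase module held most of the rises. It had 6 tested genes, of which 4 rose and 0 fell, against 23.4% of all genes higher and 25.2% lower. Their log2 fold changes had a median of 0.74. These genes are long, with a median canonical transcript of 8405 bases. Among all protein-coding genes of 5902 to 34626 bases, 49.9% were higher and 9.92% lower, and the part of length was not tested. MED13, whose protein tethers the module to the core complex, stood at 135, 114 and 125 CPM in Supinoxin replicates 1 to 3 and at 29.0, 51.4 and 51.8 CPM in untreated replicates 1 to 3. It rose 2.82-fold (log2 fold change 1.50, SE 0.22, edgeR adjusted p = 0.000823). All 3 Supinoxin libraries lay above all 3 untreated ones. Its paralogue MED13L stood at 107, 96.6 and 105 CPM with Supinoxin and 23.1, 50.7 and 49.3 CPM without. It rose 2.51-fold (log2 fold change 1.33, SE 0.26, adjusted p = 0.00315). For both genes untreated replicate 1 was the lowest library, at -0.83 (log2) for MED13 and -1.11 for MED13L relative to the other untreated libraries. Without it the log2 fold changes were 1.28 and 1.05 (adjusted p = 7.58e-06 and 1.18e-05).

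MED12, which joins cyclin C and switches on the kinase, stood at 128, 137 and 133 CPM with Supinoxin and 60.1, 88.3 and 66.6 CPM without. It rose 1.85-fold (log2 fold change 0.89, SE 0.16, edgeR adjusted p = 0.00206), and no untreated library reached the Supinoxin range. Its paralogue MED12L was counted far less, at 6.69, 6.26 and 6.82 CPM against 4.23, 7.31 and 9.71 CPM, and the groups overlapped (log2 fold change -0.10, SE 0.26, adjusted p = 0.765). Of the kinase genes themselves, CDK19 stood at 29.5, 28.8 and 29.8 CPM with Supinoxin and 17.3, 18.4 and 22.8 CPM without, a 1.51-fold rise (log2 fold change 0.59, SE 0.14, adjusted p = 0.00715). CDK8 stood at 45.7, 44.2 and 44.1 CPM against 30.6, 44.5 and 43.7 CPM. Its groups overlapped, with the untreated libraries 2 and 3 inside or beside the Supinoxin range (log2 fold change 0.17, SE 0.16, adjusted p = 0.384). Without untreated replicate 1 the log2 fold changes of CDK8 and MED12L were 0.03 and -0.36, and neither passed.

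Ratios of paralogues within a library do not depend on how libraries are scaled, but they can carry the trend with transcript length described further on. Per kb of canonical transcript, CDK8 exceeded CDK19 by 3.23, 3.21 and 3.09 times in Supinoxin replicates 1 to 3 and by 3.70, 5.04 and 4.01 times in untreated replicates 1 to 3. The groups did not overlap, and the mean log2 ratio was 1.67 ± 0.04 with Supinoxin and 2.07 ± 0.23 without (SD, n = 3 each, two-sided exact permutation p = 0.1). MED12 exceeded MED12L by 29.7, 34.1 and 30.4 times with Supinoxin and by 22.1, 18.8 and 10.7 times without, again with no overlap (difference of the mean log2 ratios 0.93, exact permutation p = 0.1). MED13 to MED13L ran from 1.11 to 1.19 with Supinoxin and from 0.957 to 1.19 without, and the groups overlapped (difference 0.13, exact permutation p = 0.3). Without untreated replicate 1 this difference was 0.22. With 3 libraries against 3 the smallest p this test can give is 0.1, and over the 3 ratios the Benjamini-Hochberg adjusted values are 0.15, 0.15 and 0.3, so none could pass 0.05. The canonical transcripts of CDK8 and CDK19 are 3065 and 6399 bases long. With the length and GC offset their log2 fold changes were 0.11 and 0.21, closer together than the 0.17 and 0.59 without it. MED12 and MED12L were then at 0.51 and -0.61, and MED13 and MED13L at 1.02 and 0.81. The part of length in the ratios was not tested.

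**Figure D2:**
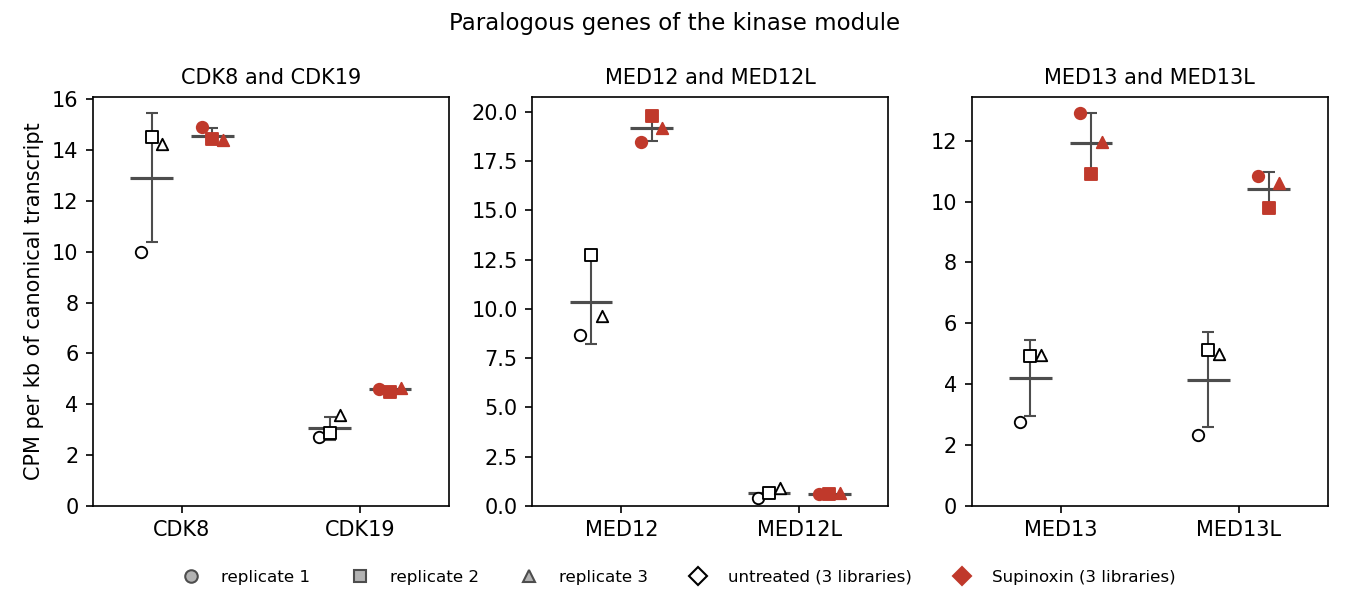
Levels of the paralogous kinase module genes in CPM per kb of canonical transcript (y axis, from 0), for untreated (open) and Supinoxin (filled) libraries, with 1 shape per replicate number, the mean as a horizontal line and the SD as an error bar (n = 3). CDK8 has means of 12.9 and 14.6 and CDK19 of 3.05 and 4.59, MED12L stays under 1, and MED13 and MED13L rise from 4.21 and 4.15 to 11.9 and 10.4.

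The head module, which meets the polymerase and the general factors, went the other way. It had 8 tested genes, of which 4 fell and 0 rose, against 25.2% of all genes lower and 23.4% higher. Their log2 fold changes had a median of -0.49. Without untreated replicate 1 the median was -0.29, with 4 lower and 1 higher. The median canonical transcript of these genes was 2159 bases. Among all protein-coding genes of 1845 to 2812 bases, 34.1% were lower and 11.8% higher, and the part of length was not tested. MED28 and MED30, whose places differ between schemes, are among the 4 that fell. With the other module placement, 3 head and 3 tail genes were lower, so the falls were then not particular to the head. MED11, the small partner of MED22, stood at 6.67, 7.11 and 6.65 CPM with Supinoxin and 16.5, 11.1 and 12.4 CPM without, a 1.96-fold fall (log2 fold change -0.97, SE 0.18, edgeR adjusted p = 0.00223). MED30, a subunit of animal Mediator without a yeast counterpart, stood at 12.8, 11.8 and 11.9 CPM against 25.9, 18.5 and 19.0 CPM, a 1.74-fold fall (log2 fold change -0.80, SE 0.16, adjusted p = 0.00372). In both genes the groups did not overlap and untreated replicate 1 was the highest library. Without that library the log2 fold changes were -0.78 and -0.62, and both passed. MED8, which holds MED18 and MED20 to the head, stood at 9.05, 10.7 and 8.31 CPM against 16.5, 11.2 and 14.3 CPM (log2 fold change -0.58, SE 0.18, adjusted p = 0.0248). MED28 showed the smallest fall of those that passed and the tightest groups: 77.1, 76.6 and 75.9 CPM against 103, 94.5 and 99.3 CPM (log2 fold change -0.37, SE 0.11, adjusted p = 0.0241). MED8 did not pass without Supinoxin replicate 1 or 3 (adjusted p = 0.0915 and 0.109), and MED28 lost its call when any 1 of the Supinoxin libraries was left out (adjusted p = 0.108 to 0.118). With library size alone neither passed (0.0685 for MED8 and 0.174 for MED28), and a replicate block gave 0.0907 for MED28.

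The remaining head genes did not pass. MED17, the architectural core of the head, was counted at only 2.01 to 4.29 CPM (log2 fold change -0.52, adjusted p = 0.147). Its log2 fold change was -0.25 without untreated replicate 1, and it passed without untreated replicate 2 (-0.77, adjusted p = 0.0212). MED18 was at 17.7 to 20.6 CPM in all libraries but untreated replicate 1, where it stood at 41.8 CPM. MED18 was therefore at -0.46 (log2) with all libraries and at 0.03 without that library. MED6 was at -0.28, or -0.09 without that library. MED22 was the head gene with a log2 fold change above 0, at 0.22 (edgeR adjusted p = 0.214), with 54.2 to 55.7 CPM under Supinoxin and 39.8 to 52.7 CPM without. It passed without untreated replicate 1 (0.31, adjusted p = 0.031). MED11 and MED22, whose proteins form a pair, thus lay on opposite sides of 0, of which the fall of MED11 passed. Their canonical transcripts are 836 and 4044 bases long. With the length and GC offset they were at -0.70 and 0.07, and the part of length in this contrast was not tested.

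The middle module was mixed. It had 7 tested genes, of which 1 rose and 2 fell, against 23.4% of all genes higher and 25.2% lower. The median was -0.22 (log2). MED1, the subunit that nuclear receptors bind, stood at 99.8, 93.1 and 93.7 CPM with Supinoxin and 22.4, 53.3 and 36.6 CPM without. It rose 2.55-fold (log2 fold change 1.35, SE 0.26, edgeR adjusted p = 0.00297), and the 3 untreated libraries were spread far more widely than the 3 Supinoxin libraries. Without untreated replicate 1 its log2 fold change was 1.09 (adjusted p = 0.000304). MED19 stood at 17.4, 17.3 and 18.2 CPM against 34.1, 24.6 and 22.4 CPM (log2 fold change -0.62, SE 0.17, adjusted p = 0.0151). MED31, a small and highly conserved subunit, stood at 9.10, 6.66 and 7.56 CPM against 10.2, 12.1 and 13.5 CPM (log2 fold change -0.62, SE 0.18, adjusted p = 0.0168). MED19 did not pass without Supinoxin replicate 1 or 2 (adjusted p = 0.0601 and 0.0609), nor did MED31 without Supinoxin replicate 2 or 3 (0.0886 and 0.0703) or with library size alone (0.0782). Without untreated replicate 1 the log2 fold change of MED19 was -0.40. MED10 stood at 57.5, 57.3 and 55.7 CPM against 87.5, 61.8 and 68.5 CPM and did not pass (log2 fold change -0.35, adjusted p = 0.0743), although its groups did not overlap. It was at -0.19 without untreated replicate 1 and passed without untreated replicate 2 (-0.45, adjusted p = 0.04). MED4, MED21 and MED9 were at -0.22, -0.16 and 0.10 and did not pass. MED14, the backbone, stood at 119, 110.3 and 112 CPM with Supinoxin and 67.2, 102 and 87.4 CPM without, with no overlap (log2 fold change 0.41, SE 0.16, adjusted p = 0.0607). It passed without untreated replicate 1 at 0.27 (adjusted p = 0.0323) and without untreated replicate 2 at 0.57 (adjusted p = 0.0215).

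In the tail module 1 of 7 tested genes rose and 1 fell, against 23.4% of all genes higher and 25.2% lower. The median was -0.23 (log2), or -0.13 without untreated replicate 1. MED23, through which ELK1 and the adenoviral E1A protein act, stood at 36.6, 34.6 and 34.0 CPM with Supinoxin and 14.2, 22.6 and 22.4 CPM without, a 1.78-fold rise (log2 fold change 0.83, SE 0.18, edgeR adjusted p = 0.00515). MED25, which the herpesviral activator VP16 binds, stood at 91.8, 96.5 and 107 CPM against 257, 161 and 151 CPM, a 1.93-fold fall (log2 fold change -0.95, SE 0.20, adjusted p = 0.00473). For both genes the groups did not overlap, and without untreated replicate 1 the values were 0.65 and -0.66, both past the threshold. MED16 stood at 139, 146 and 147 CPM against 367, 162 and 155 CPM. Its log2 fold change of -0.66 (SE 0.30, adjusted p = 0.0928) rested on untreated replicate 1, without which it was -0.13, and it passed without untreated replicate 3 (-0.88, adjusted p = 0.0405). MED27 stood at 72.9, 77.1 and 76.1 CPM against 119, 89.3 and 85.6 CPM (log2 fold change -0.38, adjusted p = 0.0619), and it passed without untreated replicate 1 at -0.21 (adjusted p = 0.0417) and without untreated replicate 3 at -0.47 (adjusted p = 0.0286). MED15, which SREBP proteins bind, was at 0.09 with all libraries (adjusted p = 0.709) and at 0.35 without untreated replicate 1 (adjusted p = 0.00529). MED24 and MED29 were at -0.15 and -0.23 and did not pass. MED24 was at 0.05 without untreated replicate 1, and MED29 passed without untreated replicate 3 (-0.30, adjusted p = 0.0469). Without untreated replicate 1, the tail counts were 2 higher and 2 lower.

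**Figure D3:**
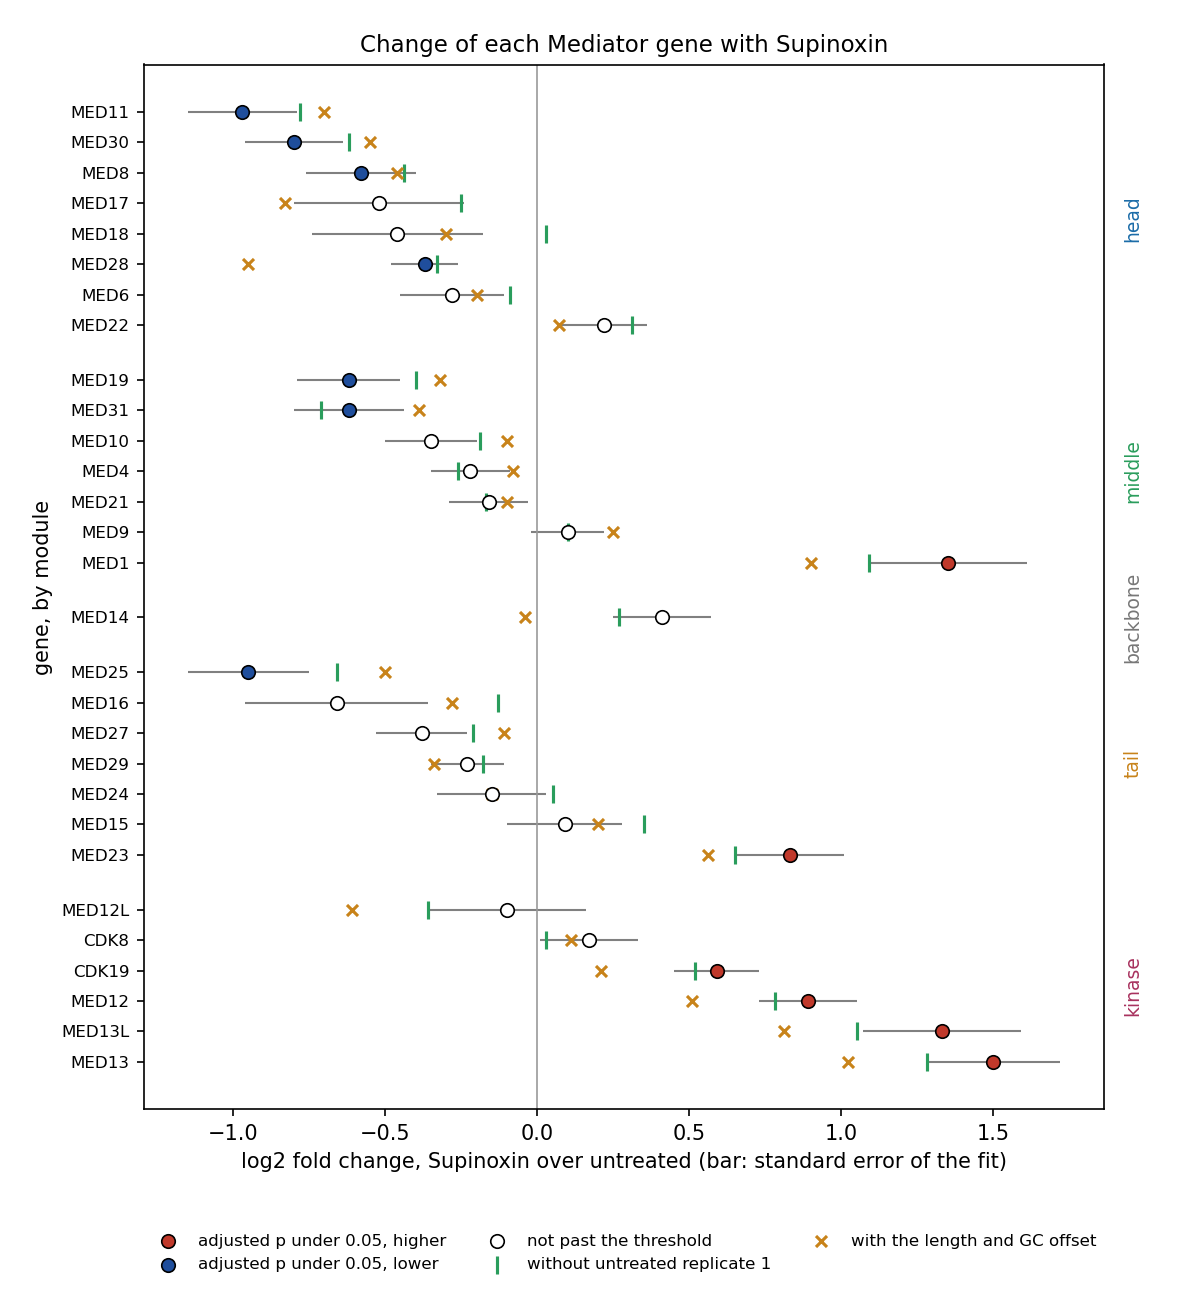
Log2 fold change of each tested Mediator gene (x axis, bar for the standard error of the fit, n = 3 per group), by gene and module (y axis). Red and blue circles passed an adjusted p of 0.05, green ticks give the value without untreated replicate 1 and crosses the value with the length and GC offset. MED13, MED13L, MED12, MED1 and MED23 are at 0.51 or more and MED11, MED30 and MED25 at -0.50 or less in all 3.

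The mean of the module genes in each library was taken from these same values, so it restates them and adds no support. Relative to the mean of all 6 libraries, kinase module genes lay on average at 0.42, 0.34 and 0.40 (log2 CPM) in Supinoxin replicates 1 to 3 and at -0.84, -0.18 and -0.14 in untreated replicates 1 to 3. Head genes lay at -0.21, -0.19 and -0.25 with Supinoxin and at 0.55, -0.02 and 0.12 without. Middle genes lay at 0.02, -0.08 and -0.02 with Supinoxin and at -0.02, 0.04 and 0.06 without. Tail genes lay at -0.14, -0.07 and -0.04 against 0.37, -0.01 and -0.10, so that their groups overlapped. The kinase, head and tail means were farthest from 0 in untreated replicate 1, the library that stood apart on the first principal component. Over all 29 genes the mean lay between -0.03 and 0.05 in every library. These means are descriptions, and no test was made of them.

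The genes that rose and those that fell also differed in transcript length. Of the 10 tested members whose canonical transcript is over 5 kb, 6 rose and 1 fell, of the 8 under 2 kb 0 rose and 5 fell, and of the 11 between 0 rose and 1 fell. All 6 that rose were over 5 kb, and MED28, MED17, MED12L and MED14 were the long members that did not rise. Over the 29 genes the rank correlation of log2 fold change with length was 0.72, and it was 0.61 without untreated replicate 1. Genes share each library and its composition, so this is a description. The trend was also seen over all genes: over 12547 tested protein-coding genes it was 0.45, or 0.39 without that library. In the longest of 5 length bins, 5902 to 34626 bases, 49.9% of all protein-coding genes were higher and 9.92% lower, beside 5 and 1 of 8 Mediator genes. In the shortest, 207 to 1844 bases, 7.57% were higher and 55.8% lower, beside 0 and 4 of 7. MED13, MED1 and MED13L, at 1.50, 1.35 and 1.33, lay above the upper quartile of the longest bin, 0.89, as MED25, at -0.95, lay below the lower quartile of its own bin, -0.65. MED23, at 0.83, also lay above the upper quartile of its bin, 0.58. MED28 and MED12L, at -0.37 and -0.10, lay below the lower quartile of theirs, 0.03. So did MED17 at -0.52 (-0.19) and MED16 at -0.66 (-0.38). Quartiles leave as many genes outside them as between them, so such places are common among all genes. With an offset that removes each library's trend with length and GC content, 5 Mediator genes were higher and 10 lower, against 25.9% and 29.8% of all genes. MED13, MED1, MED13L, MED23 and MED12 kept their calls at 1.02, 0.90, 0.81, 0.56 and 0.51, while CDK19 was at 0.21 (adjusted p = 0.0917). With it MED12L fell by 0.61 on the log2 scale (adjusted p = 0.0117), so that the kinase module held 3 rises and 1 fall. MED17 and MED29 also passed with the offset, at -0.83 and -0.34 (adjusted p = 0.0427 and 0.00373). After the offset the rank correlation with length was 0.37 over the 29 genes and 0.13 over all protein-coding genes, and the part of length in what remains was not tested.

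**Figure D4:**
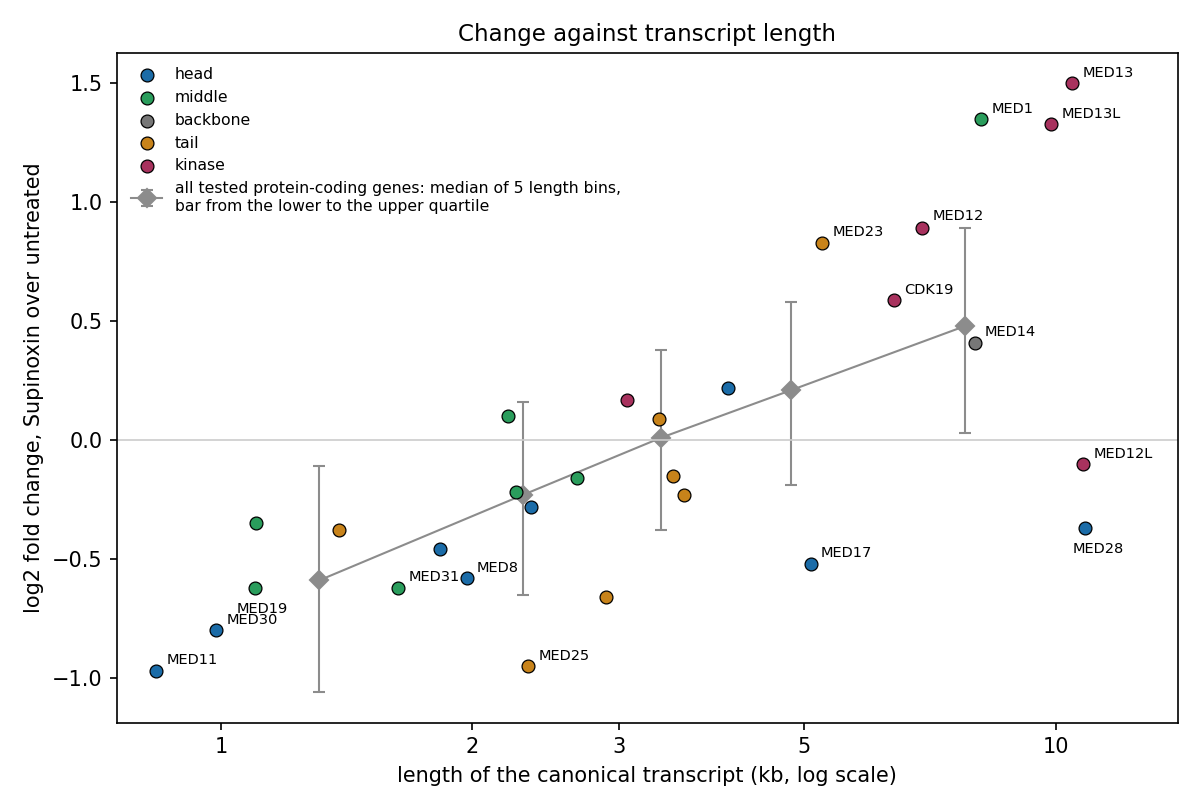
Log2 fold change (y axis) against canonical transcript length (x axis, kb, log scale) for the 29 tested Mediator genes, coloured by module, with labels for those that passed or exceed 5 kb. Grey diamonds and bars give the median and quartiles of all tested protein-coding genes in 5 length bins. The bin medians climb from -0.59 to 0.48. MED13, MED13L and MED1 lie above the last bar, and MED28, MED12L and MED17 lie below 0.

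Sequence before the gene starts was compared for the members that moved most, to see whether those that rose share features that those that fell lack. RefSeq windows of GRCh38.p14 were at hand for 25 of the 33 genes, and 250 bases before the start were read, on the strand of the gene. The windows shown belong to the members with the largest changes past the threshold, up to 3 in each direction, whose window holds at most 30 annotated exonic bases. MED1 (chr17:39451264-39451513, minus strand) and MED13L (chr12:116277694-116277943, minus strand) rose, and MED11 (chr17:4731178-4731427, plus strand), MED25 (chr19:49818039-49818288, plus strand) and MED19 (chr11:57712216-57712465, minus strand) fell. Each is given 5′ to 3′ and ends at the base before the start, with capitals for matches, on either strand, to the motifs named after them.
MED1: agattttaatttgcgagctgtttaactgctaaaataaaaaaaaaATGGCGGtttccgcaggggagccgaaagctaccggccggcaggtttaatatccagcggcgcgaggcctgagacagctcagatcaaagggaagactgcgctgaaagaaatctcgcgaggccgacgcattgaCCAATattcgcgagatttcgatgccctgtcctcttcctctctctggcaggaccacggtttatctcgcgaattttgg
MED13L: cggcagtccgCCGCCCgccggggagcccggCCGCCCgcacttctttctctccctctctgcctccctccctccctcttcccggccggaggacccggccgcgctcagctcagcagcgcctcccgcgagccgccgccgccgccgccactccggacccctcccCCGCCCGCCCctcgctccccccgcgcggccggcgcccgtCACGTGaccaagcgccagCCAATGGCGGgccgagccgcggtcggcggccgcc
MED11: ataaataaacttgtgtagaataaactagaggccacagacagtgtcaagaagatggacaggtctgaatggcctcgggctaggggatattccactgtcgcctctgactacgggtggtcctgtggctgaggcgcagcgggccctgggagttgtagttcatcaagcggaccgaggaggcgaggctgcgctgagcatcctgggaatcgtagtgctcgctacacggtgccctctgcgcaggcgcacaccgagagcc
MED25: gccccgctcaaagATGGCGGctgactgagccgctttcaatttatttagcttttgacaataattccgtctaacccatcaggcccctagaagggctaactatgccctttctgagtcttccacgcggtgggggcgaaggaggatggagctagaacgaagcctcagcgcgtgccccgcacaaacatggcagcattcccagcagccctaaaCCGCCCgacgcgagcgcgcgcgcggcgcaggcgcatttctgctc
MED19: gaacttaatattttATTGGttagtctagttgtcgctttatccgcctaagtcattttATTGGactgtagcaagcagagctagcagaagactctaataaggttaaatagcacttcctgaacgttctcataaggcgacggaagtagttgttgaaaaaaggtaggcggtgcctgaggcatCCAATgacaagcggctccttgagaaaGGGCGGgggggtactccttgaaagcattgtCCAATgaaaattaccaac

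Motifs were searched on both strands and read against 35116 windows of the same length. The GC box GGGCGG, bound by SP1, was in the windows of 4 of 5 members that rose (CDK19, MED12, MED13L and MED23) and 3 of 4 that fell (MED19, MED25 and MED31), against 42.6% of all windows. The NF-Y motif CCAAT was in 3 of 5 that rose (CDK19, MED1 and MED13L) and in 1 of 4 that fell (MED19), against 32.0%. The core of the hypoxia response element, ACGTG, was in 1 of each (MED13L and MED31), against 18.5%, and in MED13L its matches on both strands overlap. The YY1 core ATGGCGG was in MED1 and MED13L, which rose, and in MED25, which fell, against 2.88%, and in MED13L it overlaps the CCAAT match. A longer YY1 form of 11 letters was in MED25 of the members that passed, against 0.248%. The NRF1 core GCATGCG was in CDK19, against 3.39%, and a longer form of 10 letters was in no window of a member that passed, against 1.03%. Both cores were chosen after the longer forms had been counted, so that the letters could be shown. The ETS motif CCGGAAG was in MED31, against 8.52%. The TATA box TATAAA was in no window of a member that passed, against 10.7%. MED13, MED8, MED28 and MED30 are among the members that passed and have no window here. GC content of the windows ran from 43.6% to 81.2% over the 25 genes, with a median of 58.0% that equals the median of all windows, and the genes shown span that range from MED19 at 43.6% to MED13L at 81.2%. A match is a description of the letters, not a site in use.

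RNA levels of the members differed widely within the complex. Per kb of canonical transcript, untreated cells held 81.5 ± 25 CPM of MED25, 78.9 ± 41.6 of MED16, 70.8 ± 13.3 of MED27 and 66.0 ± 12.1 of MED10 (SD, n = 3), and these neighbours did not differ beyond their spread. The next gene in the order, MED19, was at 24.6 ± 5.68. Below it the others lay from MED30 at 21.5 ± 4.23 down to MED23 at 3.76 ± 0.908, with CDK8 at 12.9 ± 2.54, MED14 at 10.7 ± 2.21 and MED12 at 10.3 ± 2.13. Lower still, CDK19 was at 3.05 ± 0.45, and MED12L and MED17 were the lowest tested, at 0.657 ± 0.255 and 0.641 ± 0.228. With Supinoxin, MED27, MED10, MED16 and MED25 were again the 4 highest, at 54.4, 51.6, 49.8 and 42.2 CPM per kb. MED13, MED1 and MED13L, which were at 4.21 ± 1.25, 4.60 ± 1.91 and 4.15 ± 1.57 in untreated cells, reached 11.9 ± 0.999, 11.7 ± 0.456 and 10.4 ± 0.560. A second annotated gene on the strand of MED17 covers 13.0% of its exonic bases and was listed at 0 counts, and the part of this overlap in the low level was not tested.

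Several members overlap genes on the opposite strand, and no label states whether counting used strand, so reads of such pairs cannot be told apart. MED31 shares 58.4% of its exonic bases with TXNDC17, which also fell (log2 fold change -0.91, edgeR adjusted p = 0.00276). MED28 shares 32.1% with FAM184B and MED25 18.7% with PTOV1-AS1, and both partners rose while the member fell (log2 fold changes 0.85 and 0.46, adjusted p = 0.0414 and 0.0472). MED11 shares 36.3% with an antisense gene listed at 0. MED13, MED23, MED12 and CDK19 share none, MED13L 0.645% and MED1 8.76%.

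Genes that work beside Mediator at promoters were counted from lists of RNA polymerase II subunits, general transcription factors, TBP-associated factors and pause release and elongation factors. Of 12 polymerase subunits 1 rose and 9 fell, against 23.4% of all genes higher and 25.2% lower. Their log2 fold changes had a median of -0.73. It was -0.53 without untreated replicate 1 and -0.47 with the length and GC offset, with 1 higher and 10 lower in each. The median canonical transcript of this list was 1785 bases. Among all protein-coding genes of 207 to 1844 bases, 7.57% were higher and 55.8% lower, and the part of length was not tested. POLR2A, the large catalytic subunit, rose by 1.01 (edgeR adjusted p = 0.00147), while the small shared subunits POLR2K and POLR2F fell by 1.03 and 1.02 on the log2 scale. Of 17 general transcription factor genes 1 rose (GTF2A1, at 0.76) and 7 fell, among them GTF2H5 and GTF2A2 at -0.59 and -0.79. Of 13 TBP-associated factor genes 3 rose and 0 fell, with TAF4 and TAF1 at 0.70 and 0.71. Of 18 pause release and elongation genes 6 rose and 6 fell. AFF1, a scaffold of the super elongation complex, rose by 1.61 on the log2 scale, ELL2, an elongation factor, fell from 8.14 ± 0.91 to 0.865 ± 0.112 CPM (log2 fold change -3.23, adjusted p = 1.5e-05), and NELFE, a subunit of the pausing factor NELF, fell by 0.73 on the log2 scale. The same shares of all genes, 23.4% higher and 25.2% lower, are the background for the counts of each list. The median canonical transcript was 1785 bases for the polymerase list, 2432 for the general factors, 3259 for the TBP-associated factors and 3824 for the elongation list, against 3065 for the 29 Mediator genes.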

How the data were processed

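Counts of reads per Ensembl gene in 6 libraries were deposited by the authors as 1 table. The build was GRCh38 and the tools named were featureCounts, STAR, edgeR, DESeq2, fastp and Trim Galore 0.4.4, per the submitters' processing notes. Strand setting, handling of multimapping reads and annotation release are not stated there. Gene symbols, canonical transcript length and GC content came from GENCODE 44, which held 60463 of the 60605 identifiers. Genes were filtered with edgeR's filterByExpr, scaled by TMM and tested with edgeR 4.0.16 (glmQLFit and glmQLFTest, R 4.3.3), with Benjamini-Hochberg adjustment over 15947 genes and calls at an adjusted p under 0.05. Variation between replicates beyond counting noise was estimated at 17% over both groups, and it may be technical. The groups were unlike in spread. Chi-square per degree of freedom against sampling noise was 4.41 to 7.43 for pairs of Supinoxin libraries and 29.07 to 116.52 for pairs of untreated ones. Standard errors and p-values rest on a spread shared by both groups. The procedure was tested on simulated data with the same spread in both groups, which cannot show how it behaves with the unlike spreads here. Paralogue ratios were compared by a two-sided exact permutation test.

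Alternatives were DESeq2 1.42.0 (its size factors, its Wald test), library size alone, other filters, a replicate block, a length and GC offset, leaving out each library, and another module placement. Every member was named, with values per library for up to 4 members of smallest p in each module and for kinase paralogues. In the other lists up to 2 per direction were named by smallest p, together with the genes beside Mediator too low to test. EPCAM, KRT8 and the other markers were named as checks after their values were seen. The members and lists were chosen with earlier results of these data known. Some genes of these lists are not reported here.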

Additional observations from a re-analysis of the deposited data

How the results depend on the processing

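Of the 13 members that passed, MED13, MED13L, MED12, MED1, MED23, MED11, MED30 and MED25 kept their calls in all 13 alternative fits. Calls were lost in at least 1 fit for MED8, MED28, MED19, MED31 and CDK19, and gained in at least 1 for MED17, MED22, MED10, MED14, MED16, MED27, MED29, MED15 and MED12L. Scaling by library size alone put the all-gene median at 0.14 (log2), with 27.0% of all genes higher and 19.7% lower, and then 7 Mediator genes were higher and 4 lower, 2 of these in the head and 1 in the middle module. With the length and GC offset, 2 tail genes and 1 kinase module gene were lower. With the other module placement, 3 head, 1 middle and 3 tail genes were lower. Leaving out 1 library gave 6 to 9 Mediator genes higher and 4 to 10 lower, against 2556 to 4334 and 2789 to 4477 of all genes. By module this gave 0 to 1 head genes higher and 2 to 5 lower, 0 to 3 middle genes lower, 1 to 2 tail genes higher and 1 to 4 lower, and 4 kinase module genes higher. Direction reversed for MED14 with the offset (-0.04), and for MED24 (0.01) and MED12L (0.01) when scaled by library size alone. Leaving out 1 library gave a range across 0 for MED18 (-0.69 to 0.03, the latter without untreated replicate 1), MED24 (-0.30 to 0.05, the latter without untreated replicate 1), MED15 (-0.04 to 0.35, with -0.04 and -0.00 without untreated replicates 2 and 3) and MED12L (-0.36 to 0.19, the latter without untreated replicate 3). None of these members had passed with all libraries, and the cause was not tested. The labels share replicate numbers, but same-numbered libraries correlated at -0.133, -0.043 and -0.029 in their deviations from the group mean. These values show no sign of pairing, but with 3 libraries a group they cannot settle whether libraries were paired. With a replicate block 6 Mediator genes were higher and 6 lower (3588 and 3650 of all genes). With 3 libraries a group and members such as MED17 near 2 CPM, small changes may go uncalled.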
